A study of Caenorhabditis elegans with 14 samples.

Results

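The MATH and BATH genes of Caenorhabditis elegans were read out in wild-type and pycr-1(wrm22) worms, each as total and as polysomal RNA. Members were the entries whose single gene name was math or bath followed by a number. The rule found 87 genes, 46 MATH and 41 BATH, among 41875 entries of a gene name and locus. Of those entries 38790 carried a single name. Another 4 entries held a math or bath name together with other names and were not members.

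The MATH domain, named for meprin and TRAF homology, is a protein-protein interaction domain. BATH proteins join it to a BTB domain, which binds the cullin CUL-3, so that a BATH protein can bring a substrate to a CUL-3 ubiquitin ligase. MEL-26, a worm protein with both domains but without a bath number, marks the katanin subunit MEI-1 for destruction after meiosis in the early embryo. Both families are expanded in nematodes, and no substrate is known for most of their members.

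Worms of the strain Bristol N2 (wild type) and of pycr-1(wrm22) were synchronized, fed OP50 bacteria at 20 °C and harvested gravid on day 1 of adulthood, about 12000 for each replicate. The product of pycr-1 is a pyrroline-5-carboxylate reductase, which makes proline. The labels name neither what the wrm22 allele changes nor whether replicates came from separate cultures, so the p-values measure the spread of these libraries, which may be technical. From each lysate, total RNA was taken, and RNA of gradient fractions with 3 or more ribosomes on an mRNA gave the polysomal RNA. There were 3 wild-type and 4 pycr-1(wrm22) libraries of each kind, 14 in all.

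The files gave 1 value per gene and group, the FPKM (fragments scaled by transcript length and by all mapped fragments), with no value per library and no depth. The values of single genes, levels and tests alike, came from the authors' deposited table. A gene passed the threshold where the Cuffdiff adjusted p was under 0.05. The smallest adjusted p in the authors' deposited table was 0.000207, so genes given that value cannot be ranked by it. Errors after ± are SEs of log2 fold changes, derived from the deposited test statistics after the variance of a group is divided by its count of libraries (3 or 4). The gene pycr-1, listed as M153.1 in the authors' deposited table, stood at 4.91 FPKM in wild-type and 20.3 FPKM in pycr-1(wrm22) total RNA, a log2 fold change of 2.05 ± 0.20 (adjusted p = 0.000207). The targeted gene was thus higher, not lower, in the library groups labelled as mutant, which are called mutant-labelled here, and every direction between strains rests on that label. Over genes that reached 5 FPKM in both groups compared, the median log2 difference between strains was -0.35 in total and -0.26 in polysomal RNA, and medians are also given after subtracting it (centred). Over all tested entries, weak ones included, the median was -0.04 in total and -0.07 in polysomal RNA.

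Most of the family lay together on 1 chromosome. Of the 87 genes, 73 lay on chromosome II (build WBcel235), and 70 of these, 43 MATH and 27 BATH, lay within its first 4 Mb. The longest run without a gap over 50 kb between members spanned 391.849 kb, from 1763372 to 2155220, and held 39 MATH and 14 BATH genes. A shorter run from 3345218 to 3381403 held 5 BATH genes and no MATH gene. The 5 genes with the highest wild-type levels lay apart from these runs: bath-42 (8161449 to 8163383), bath-41 and bath-43 on chromosome III, bath-40 on chromosome I, and math-33 (11113914 to 11119730) on chromosome V. In the Ensembl release 115 annotation 69 members were protein-coding (35 MATH, 34 BATH) and 18 were pseudogenes (11 MATH, 7 BATH). The coding length was alike in both families, with a median of 951 bases for MATH and 940.5 bases for BATH genes, although MATH genes ranged more widely, from 315 to 3414 against 726 to 2118 bases. The deposited intervals of 12 members overlapped another named gene, among them bath-26 and bath-46, which shared 1 interval, and bath-38, bath-39, bath-41, bath-47, math-33, math-37 and math-44. Values of near-identical neighbours and of overlapping genes are uncertain, since the counting of reads that map to several places is not given in the sources used here.

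BATH genes were far more often expressed than MATH genes. In wild-type total RNA 30 of 41 BATH genes but 10 of 46 MATH genes reached 1 FPKM, against 32.2% of all single-name entries. Those 38790 entries were not only coding genes, and 19777 of them stood at 0. Of 18668 coding genes outside the family 13802 had enough fragments for the test between strains in total RNA. Among coding members 31 of 34 BATH but 14 of 35 MATH genes had enough. The median level was 3.66 FPKM for BATH and 0.133 FPKM for MATH genes. At 10 FPKM or more stood 11 BATH genes and 1 MATH gene. The 10 MATH genes at 1 FPKM or more in wild-type polysomal RNA compared with 19 BATH genes there. In the mutant-labelled groups 12 MATH and 29 BATH genes reached 1 FPKM in total RNA, and 11 and 19 in polysomal RNA. The summed BATH level was 618 and 411 FPKM in wild-type and mutant-labelled total RNA and 258 and 196 FPKM in polysomal RNA, so that in each strain total stood above polysomal RNA. The summed MATH level was 124 and 114 FPKM in total and 133 and 118 FPKM in polysomal RNA of wild type and mutant-labelled worms, and math-33 made up most of it. Sums over all single-name entries differed too: 1.06e+06 and 1.79e+06 FPKM in total and 972921 and 806049 FPKM in polysomal RNA. The highest single-name entry stood at 35176.5 FPKM in wild-type and 830999 FPKM in mutant-labelled total RNA. What this difference does to the strain comparison was not tested.

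**Figure D1:**
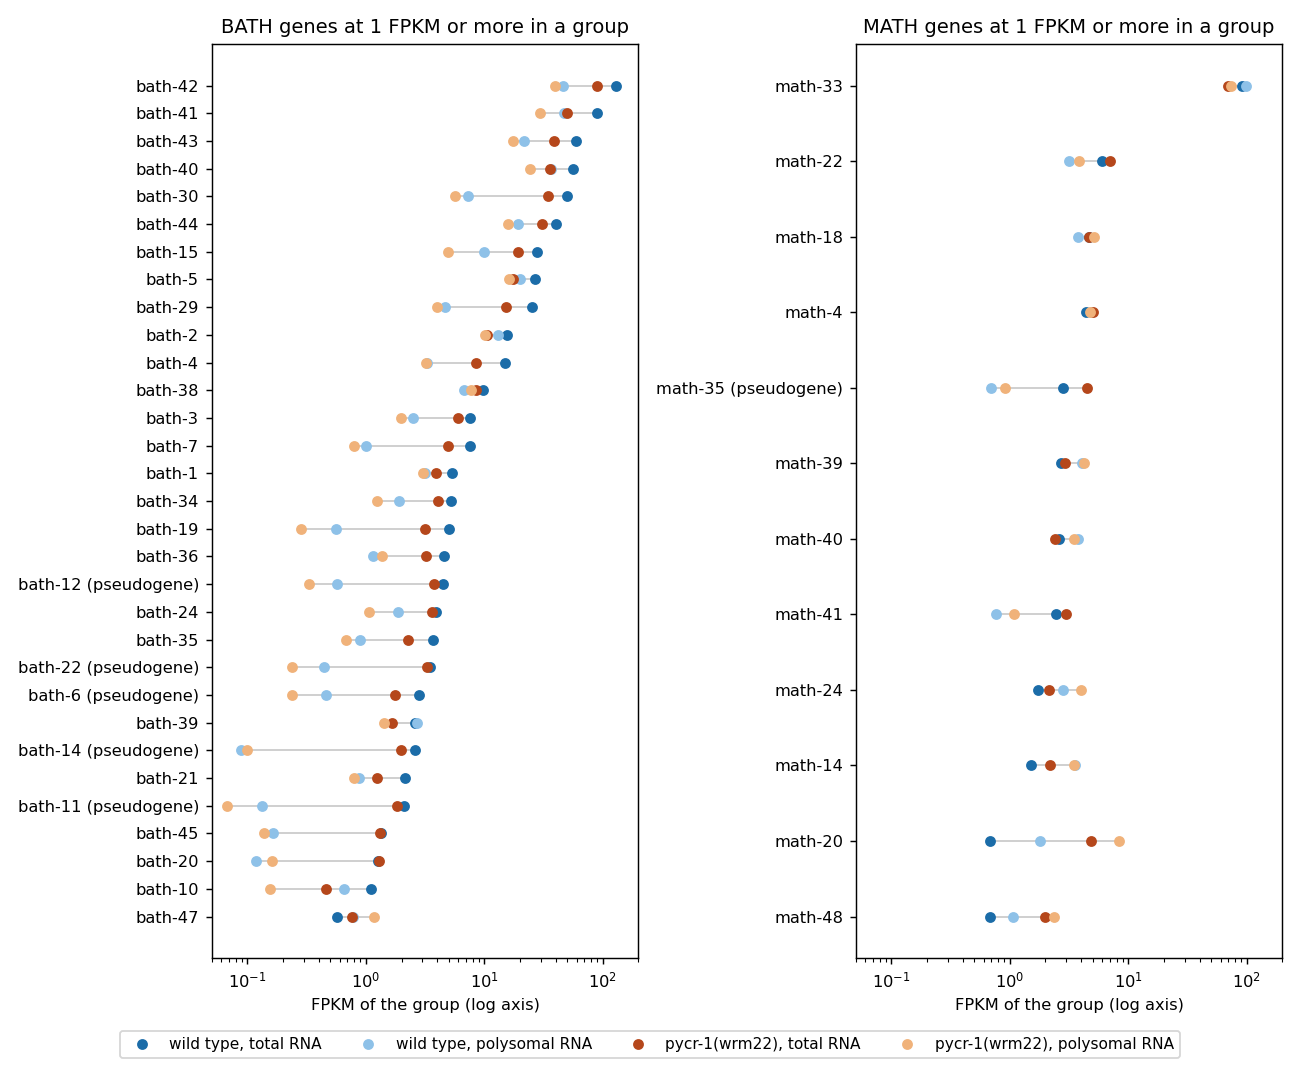
FPKM (log axis) of each BATH gene (left) and MATH gene (right) that reached 1 FPKM in at least 1 group, ordered by the level in wild-type total RNA, with 1 point for each of the 4 groups and a grey line over their range. For most BATH genes both polysomal points lie left of both total points, while math-20 has both mutant-labelled points right of both wild-type points; no error is drawn because the files hold 1 value per group.

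Of the 87 genes, 57 were tested in at least 1 of the 4 comparisons and 30 in none, because Cuffdiff tests only genes with enough fragments. The untested genes were 27 MATH and 3 BATH genes (bath-25, bath-33 and bath-37), and none of them exceeded 0.348 FPKM in any group. Of these, math-12, math-16, math-19 and math-25, were listed at 0 in every group. Counts below are over the tested members, 19 MATH and 38 BATH genes in at least 1 comparison.

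Between the strains, BATH transcripts in total RNA were lower or did not pass the threshold, and no BATH gene was higher. In total RNA 20 of 38 tested BATH genes fell and 0 rose, while in all entries 27.9% fell and 18.6% rose (46.5% passed in either direction). The median log2 fold change of the tested BATH genes was -0.55, against -0.04 over all tested entries. After centring on genes at 5 FPKM or more these medians were -0.20 and 0.31. Abundant entries of any kind were more often lower than weak ones. At a mean of 10 FPKM or more all 11 BATH genes fell, where 48.9% of all entries did, with a median of -0.62 against -0.41. Between 1 and 10 FPKM 6 of 18 BATH genes fell, where 9.66% of all entries did.

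The most abundant BATH genes moved by similar amounts. For bath-42 the deposited FPKM in total RNA was 130 (wild type) and 88.8 (mutant-labelled), a log2 change of -0.55 ± 0.15 in the authors' deposited table (Cuffdiff adjusted p = 0.00137). For bath-41, 89.95 and 49.8 FPKM gave -0.85 ± 0.15 in the authors' deposited table (Cuffdiff adjusted p = 0.000207). The gene bath-43 is named spop-1 in current annotation, after human SPOP, a CUL3 substrate adaptor. It stood at 59.8 and 38.7 FPKM, a log2 change of -0.63 ± 0.15 in the authors' deposited table (Cuffdiff adjusted p = 0.000569). For bath-40, 56.5 and 35.7 FPKM gave -0.66 ± 0.15 in the authors' deposited table (Cuffdiff adjusted p = 0.000207). The next genes in the order of wild-type level, bath-30, bath-44, bath-15, bath-5, bath-29, bath-2 and bath-4, fell by 0.53, 0.38, 0.54, 0.62, 0.73, 0.55 and 0.82 on the log2 scale of the authors' deposited table. The SEs of these 11 genes ran from 0.15 to 0.19, and differences among the genes were not tested. After centring on genes at 5 FPKM or more, their values ran from -0.50 for bath-41 to -0.03 for bath-44. For bath-42 -0.20 was left, so a large part of several of these falls was shared with other genes of that level. The largest called falls were of weak genes: bath-8, a pseudogene at 0.492 and 0.0895 FPKM, at -2.46, and bath-10 (1.12 and 0.462 FPKM) and bath-31 (0.759 and 0.314 FPKM), both at -1.27 in the authors' deposited table. For bath-8 no SE could be derived, because too few of its comparisons were tested. The other called BATH genes, bath-6, bath-7, bath-19, bath-21, bath-36 and bath-39, lay between -0.51 and -0.78 in the authors' deposited table.

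Of 15 tested MATH transcripts 13 lay above 0 in total RNA. There 4 of 15 tested MATH genes rose and 1 fell, with a median log2 fold change of 0.31, or 0.66 after centring on genes at 5 FPKM or more. That share of rises lies near the background: between 1 and 10 FPKM, where most tested MATH genes lay, 3 of 11 rose against 28.6% of all entries, and their median was 0.28 against 0.30 for all entries of that level. The largest rise was of math-20, from 0.679 FPKM in wild-type to 4.83 FPKM in mutant-labelled total RNA and from 1.81 to 8.39 FPKM in polysomal RNA. Both mutant-labelled values lay above both wild-type values. The authors' deposited table gave log2 changes of 2.83 ± 0.29 in total and 2.22 ± 0.26 in polysomal RNA (adjusted p = 0.000207 in each). Near it, math-44 rose from 0.101 to 0.572 FPKM in total RNA, 2.50 on the log2 scale of the authors' deposited table (Cuffdiff adjusted p = 0.000736), with no SE. It was not tested between strains in polysomal RNA, and its interval overlaps the gene Y16E11A.4. The gene math-48, also in the long run, rose from 0.679 to 1.98 FPKM in total and from 1.07 to 2.38 FPKM in polysomal RNA. In the authors' deposited table its log2 changes were 1.54 ± 0.35 (adjusted p = 0.000207) and 1.15 ± 0.33 (adjusted p = 0.00279). The pseudogene math-35 rose from 2.79 to 4.45 FPKM in total RNA, 0.67 ± 0.22 in the authors' deposited table (Cuffdiff adjusted p = 0.00486).

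The gene math-33 differs in kind from the other MATH genes: it is the worm homolog of the deubiquitinase USP7, which removes ubiquitin rather than helping to attach it. It was the only MATH gene above 10 FPKM, at 90.9 and 69.4 FPKM in wild-type and mutant-labelled total RNA and 99.1 and 73.2 FPKM in polysomal RNA. It fell by 0.39 ± 0.15 (adjusted p = 0.0292) and 0.44 ± 0.15 (adjusted p = 0.0148) on the log2 scale of the authors' deposited table. After centring on genes at 5 FPKM or more, -0.04 was left in total and -0.18 in polysomal RNA. Its interval overlaps the gene scb-1.

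**Figure D2:**
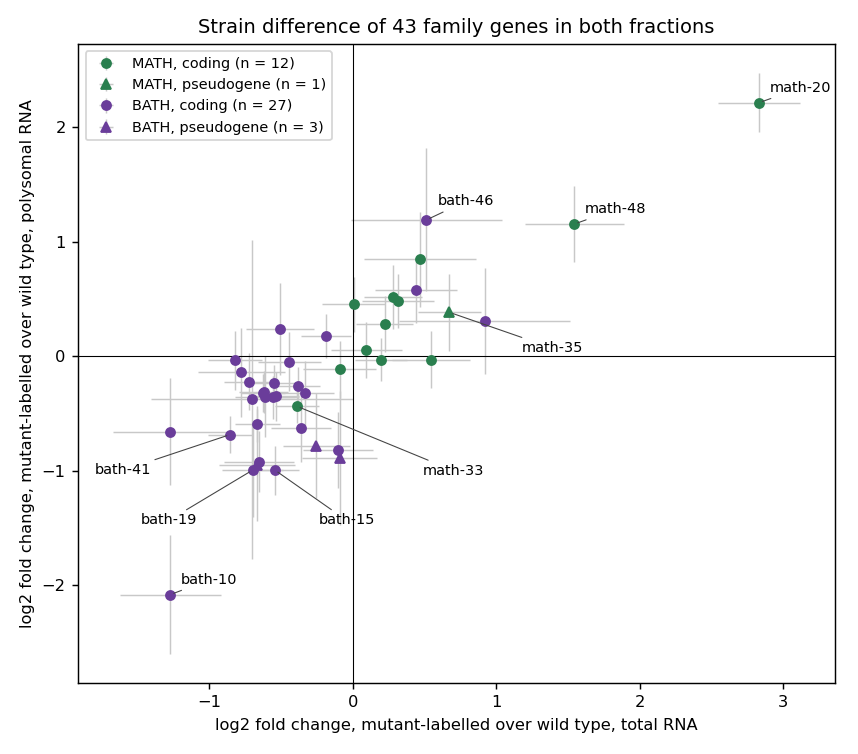
Log2 fold change of mutant-labelled over wild-type FPKM in total RNA (x axis) and polysomal RNA (y axis) for the 43 members tested in both, with circles for coding genes, triangles for pseudogenes, and bars for the SE implied by the deposited statistics. Points of 39 of the 43 genes lie in the lower left or upper right quadrant, with BATH genes mostly at the lower left and math-20 and math-48 at the upper right.

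In polysomal RNA fewer BATH genes passed the threshold. Of 30 tested BATH genes 7 fell and 0 rose, against 23.9% and 14.8% of all entries (38.7% in either direction). Over all levels together the share of falls thus lay near the background. By mean level, 2 of 12 BATH genes fell under 1 FPKM, 3 of 11 between 1 and 10 FPKM and 2 of 7 at 10 FPKM or more. Of all entries 9.26%, 11.5% and 38.2% fell in these bands. The median of the tested BATH genes was -0.35, against -0.07 over all tested entries. After centring on genes at 5 FPKM or more these medians were -0.10 and 0.18. The 7 that fell were bath-10, bath-15, bath-19, bath-24, bath-39, bath-40 and bath-41. All but bath-24 had also fallen in total RNA, which is 30.0% of the 20 falls there. The matching overlap over all entries was not computed, so that share is a description only. The largest was bath-10, from 0.659 to 0.155 FPKM, -2.08 ± 0.52 in the authors' deposited table (Cuffdiff adjusted p = 0.00346). For bath-15 the polysomal level went from 9.90 to 4.96 FPKM, -0.996 ± 0.21 in the authors' deposited table (Cuffdiff adjusted p = 0.000207), and both polysomal values lay below both total values of 28.05 and 19.3 FPKM. By contrast bath-4, at 3.28 and 3.20 FPKM in polysomal RNA, had a log2 change of -0.04 ± 0.26 in the authors' deposited table (Cuffdiff adjusted p = 0.916). Of 17 tested MATH genes 2 rose (math-20 and math-48) and 2 fell (math-33 and math-10). For math-10 the polysomal level went from 0.726 to 0.358 FPKM, -1.02 ± 0.41 in the authors' deposited table (Cuffdiff adjusted p = 0.0365), and the gene was not tested in total RNA. Across the 43 members tested in both fractions the 2 strain differences had the same sign for 39. The same count was not made over all entries.

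Genes of both families sat side by side in the long run on chromosome II, most BATH genes there below 0 and most tested MATH genes above it. Of its 14 BATH genes, all tested in total RNA, 7 fell and 0 rose, against 27.9% and 18.6% of all entries. Of the 14, 13 lay below 0, from -0.82 for bath-4 to 0.01 for bath-20 in the authors' deposited table. Of its 39 MATH genes 12 were tested, 4 rose and 0 fell, and 11 lay above 0, from -0.09 for math-40 to 2.83 for math-20 in the authors' deposited table. That share of rises lay near the 28.6% of all entries between 1 and 10 FPKM. The block of bath-11, bath-4, bath-6, bath-7, bath-2 and bath-22 was followed by the stretch with math-48, math-44 and math-20, and that by the block from bath-21 to bath-14. In the shorter run at 3345218 to 3381403, 4 of 5 BATH genes fell (bath-30, bath-29, bath-10 and bath-8), and bath-23 stood at -0.90 ± 0.43 in the authors' deposited table (Cuffdiff adjusted p = 0.0754). Between the left end and the long run, bath-26, bath-46 and bath-47 had positive values from 0.44 to 0.92 and none passed the threshold. Of the BATH genes outside the first 4 Mb of chromosome II, 12 were tested, 8 fell and all 12 lay below 0. These 12 genes lay in 2 level bands: of all entries 48.9% fell at 10 FPKM or more and 9.66% between 1 and 10 FPKM.

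**Figure D3:**
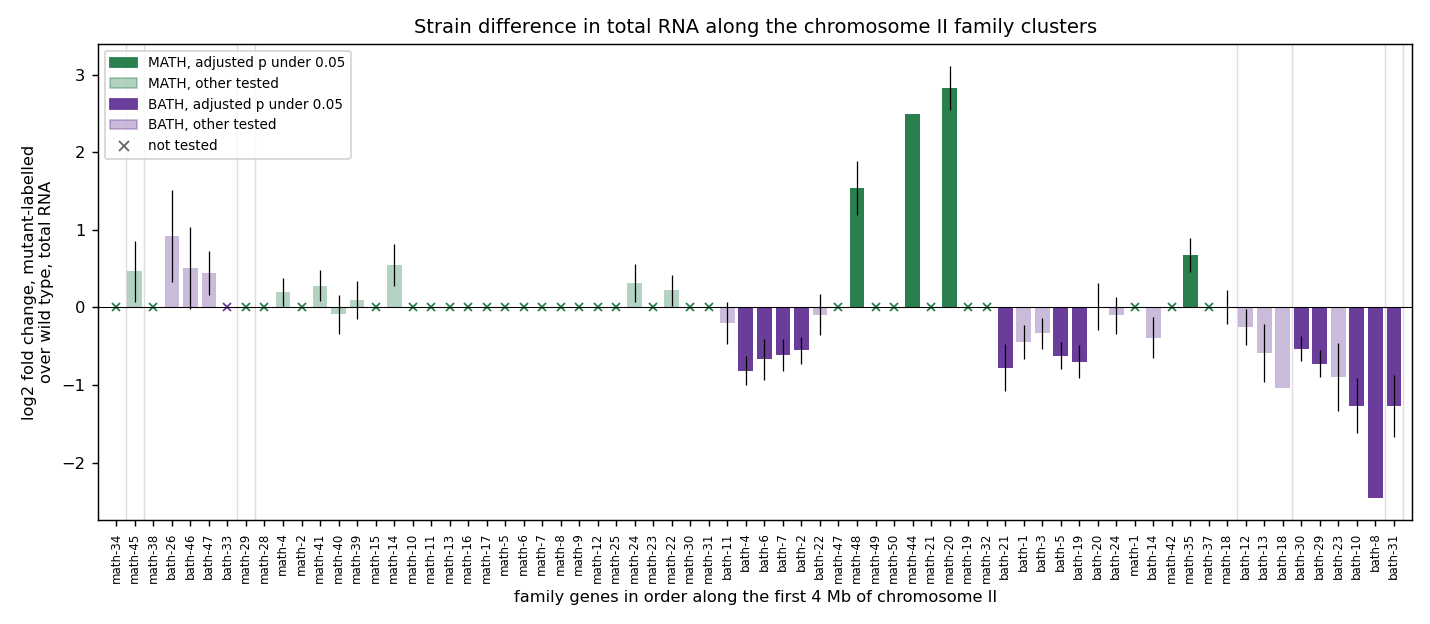
Log2 fold change of mutant-labelled over wild-type FPKM in total RNA for the 70 members in the first 4 Mb of chromosome II, in gene order and not to scale, with filled bars where the adjusted p was under 0.05, pale bars for other tested genes, crosses for untested genes, black lines for the SE where one could be derived, and grey lines between runs. Green MATH bars of the long run mostly point up, to 2.83 for math-20, and purple BATH bars of the same run mostly point down, to -0.82 for bath-4.

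Some marker lists of cell types moved with the strain as well. Of all tested entries 27.9% fell and 18.6% rose in total RNA, and 23.9% fell in polysomal RNA. Of 22 oocyte and germline genes 21 fell and 0 rose in total RNA, with log2 fold changes from -1.31 to -0.19 and a summed level of 4391 FPKM in wild-type and 2419 FPKM in mutant-labelled worms. In polysomal RNA 18 of the 22 fell, with a summed level of 2293 and 1304 FPKM. Of 11 tested embryo genes 9 fell and 0 rose in total RNA, with a summed level of 993 and 566 FPKM. Epidermis genes rose in 9 of 14 cases and fell in 0, and their summed level was 1324 and 1163 FPKM. Of 57 tested sperm genes 26 rose and 2 fell, with a summed level of 5051 and 6043 FPKM. Intestine, muscle and neuron genes rose in 3 of 13, 2 of 14 and 2 of 14 cases, shares near the background, and fell in 0. No listed gene was at 0 in all groups. The part of these shifts in the BATH and MATH differences was not tested, and in whole worms fewer cells of a type and less RNA per cell cannot be told apart.

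Between fractions, most tested BATH transcripts stood lower in polysomal than in total RNA. In wild type 26 of 38 tested BATH genes were lower in polysomal than in total RNA and 1, bath-26, was higher, against 26.9% and 24.7% of all entries (51.6% in either direction). The median log2 ratio of polysomal to total FPKM was -1.50 for the tested BATH genes, 0.58 for the 15 tested MATH genes and 0.05 for all entries. In mutant-labelled worms 24 of 36 tested BATH genes were lower and 1, bath-47, was higher, against 27% and 23.9% (50.8%), with a median of -1.58. Of the BATH genes lower in each strain, 21 were the same, 80.8% of the wild-type and 87.5% of the mutant-labelled ones. That overlap was not computed over all entries, so it cannot be called particular to the family. Low ratios were not particular to BATH genes. Of the 22 oocyte and germline genes 16 were lower and 3 higher in each strain, with medians of -0.94 in wild type and -1.51 in mutant-labelled worms. Other marker lists differed: 34 of 57 sperm and 11 of 14 muscle genes were higher in wild type, and 5 and 0 were lower. FPKM is scaled within each library, so these ratios compare a gene with the other genes of its fraction and do not give a share of molecules on ribosomes.

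Among abundant coding genes bath-30 stood lowest: 50.1 FPKM in total and 7.28 FPKM in polysomal RNA of wild type, and 34.6 and 5.70 FPKM in mutant-labelled worms. Both polysomal values lay far below both total values. The log2 ratios in the authors' deposited table were -2.78 ± 0.20 and -2.60 ± 0.18 (adjusted p = 0.000207 in each). Its neighbour bath-29, at 25.3 and 4.69 FPKM in wild type, followed at -2.43 ± 0.23 and -1.93 ± 0.20 in the authors' deposited table (Cuffdiff adjusted p = 0.000207 in each). The most abundant, bath-42, with 46.1 and 39.3 FPKM in wild-type and mutant-labelled polysomal RNA, had ratios of -1.50 ± 0.16 and -1.18 ± 0.14 in the authors' deposited table (Cuffdiff adjusted p = 0.000207 in each). Other BATH genes lay near 0. For bath-2, with 15.5 FPKM in total and 13.1 FPKM in polysomal RNA of wild type, the ratio was -0.24 ± 0.19 (adjusted p = 0.298), and for bath-39, with 2.62 and 2.69 FPKM, it was 0.04 ± 0.26 (adjusted p = 0.916) in the authors' deposited table. Ratios within the family were widely spread: in wild type 7 BATH genes lay below -3, 9 from -3 to -2, 10 from -2 to -1, 9 from -1 to 0 and 3 above 0. Neighbours in the long run also differed, with bath-7 at -2.90 ± 0.30 beside bath-2 at -0.24 ± 0.19 in the authors' deposited table.

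Members annotated as pseudogenes had low ratios. All 8 that were tested in wild type had ratios below 0, 6 of them past the threshold, with a median of -2.79, and in mutant-labelled worms all 6 tested were lower, with a median of -3.63. For bath-14 the level was 2.60 FPKM in total and 0.0889 FPKM in polysomal RNA of wild type, -4.87 ± 0.65 in the authors' deposited table (Cuffdiff adjusted p = 0.00807). For bath-11, 2.12 and 0.132 FPKM gave -3.998 ± 0.57 in the authors' deposited table (Cuffdiff adjusted p = 0.00106). Pseudogenes outside the family had the same tendency, with 327 of 471 tested in wild type lower and a median of -2.63. Coding BATH genes were lower as well: 21 of 31 tested in wild type, with a median of -1.44, and 19 of 31 in mutant-labelled worms, with a median of -1.25. Of tested coding genes outside the family 25.1% were lower in wild type and 24.9% in mutant-labelled worms, with medians of 0.12 and 0.09. Over the 45 coding members tested in wild type, the ratio varied little with coding length (Pearson's r = 0.185, Spearman's rho = 0.151), given as a description of genes that share the same libraries.

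MATH genes went both ways between fractions. In wild type 5 of 15 tested MATH genes were higher in polysomal RNA (math-10, math-14, math-20, math-24 and math-38) and 3 were lower (math-22, math-35 and math-41), against 24.7% and 26.9% of all entries. In mutant-labelled worms 6 of 18 were higher (math-14, math-20, math-24, math-37, math-38 and math-39) and 4 were lower (math-22, math-35, math-41 and math-44), against 23.9% and 27% of all entries. Both shares lie near the background in each strain. For math-14 the level was 1.50 FPKM in total and 3.57 FPKM in polysomal RNA of wild type and 2.19 and 3.49 FPKM in mutant-labelled worms. Its log2 ratios in the authors' deposited table were 1.25 ± 0.28 (adjusted p = 0.000207) and 0.67 ± 0.23 (adjusted p = 0.009). The most abundant of the lower ones, math-22, at 6.05 and 3.18 FPKM in wild type and 7.05 and 3.86 FPKM in mutant-labelled worms, had -0.93 ± 0.24 (adjusted p = 0.00137) and -0.87 ± 0.20 (adjusted p = 0.000207) in the authors' deposited table. For math-33 the ratios were 0.13 ± 0.15 (adjusted p = 0.515) and 0.08 ± 0.15 (adjusted p = 0.695) in the authors' deposited table.

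**Figure D4:**
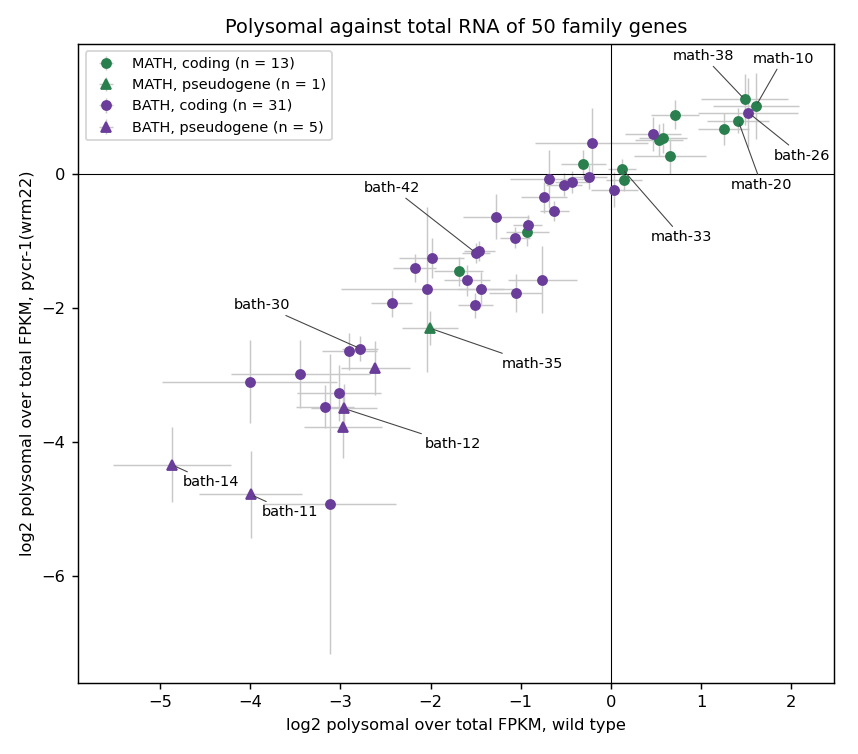
Log2 ratio of polysomal to total FPKM in wild type (x axis) and in mutant-labelled worms (y axis) for the 50 members tested in both, with circles for coding genes, triangles for pseudogenes, and bars for the SE implied by the deposited statistics. The points follow a rising line from the pseudogenes bath-14 and bath-11 at the lower left to math-38, math-10 and bath-26 at the upper right, and most BATH genes lie below 0 on both axes.

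The ratios of a gene in the strains lay close together. Across the 50 members tested in both, which share their libraries, Pearson's r was 0.947 and Spearman's rho 0.966, a description without a test. The change of the ratio between strains was tested by a Wald test on the deposited statistics as they stand, with Benjamini-Hochberg adjustment across 14665 entries. None of the 50 members passed, 0 had an unadjusted p under 0.05, and 0.0273% of all entries passed. Only 33 of the 14665 entries had an unadjusted p under 0.05 in this version. It was thus too strict to decide whether the ratios of members changed. With variances divided by the libraries of each group, 0.157% of all entries and again none of the 50 passed, and 1 member had an unadjusted p under 0.05. That was bath-4, whose log2 ratio was higher by 0.78 ± 0.32 in mutant-labelled worms and did not pass after adjustment. A p that misses the threshold does not show equal ratios.

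Genes of the CUL-3 pathway were read from a list of 28, of which 23 were single-name entries outside the family. They comprised the cullin, its RING subunits, the activating ubiquitin-like protein NEDD8 and enzymes that attach it, the COP9 signalosome that removes it, the exchange factor cand-1 and other BTB genes. The list also held mei-1 and mei-2, which encode the katanin subunits and are not parts of the ligase. In total RNA 17 of 23 fell and 1, the kelch-repeat gene kel-10, rose, against 27.9% and 18.6% of all entries, and 48.9% of entries at 10 FPKM or more fell. The median of the list was -0.55, or -0.20 after centring on genes at 5 FPKM or more. In polysomal RNA 15 fell and 0 rose, against 23.9% and 14.8% of all entries, and 38.2% of entries at 10 FPKM or more fell, with a list median of -0.54. The gene kel-10 stood at 9.33 and 18.6 FPKM in total RNA, and hpo-9, another BTB gene, fell there by 0.73 ± 0.15 in the authors' deposited table (Cuffdiff adjusted p = 0.000207 for both genes). In polysomal RNA ned-8, which encodes NEDD8, fell by 0.70 ± 0.16 and the signalosome gene csn-1 by 0.60 ± 0.15 in the authors' deposited table (Cuffdiff adjusted p = 0.000207 in each). The cullin cul-3 itself stood at 102 and 77.9 FPKM in wild-type and mutant-labelled total RNA and 128 and 87.8 FPKM in polysomal RNA. It fell by 0.39 ± 0.15 (adjusted p = 0.0235) and 0.55 ± 0.15 (adjusted p = 0.000736) on the log2 scale of the authors' deposited table. After centring, -0.04 was left for cul-3 in total and -0.29 in polysomal RNA. The adaptor mel-26 stood at 112 and 67.5 FPKM in total and 33.1 and 20.5 FPKM in polysomal RNA, and fell by 0.73 ± 0.15 and 0.69 ± 0.16 in the authors' deposited table (Cuffdiff adjusted p = 0.000207 in each). The gene mei-2, whose product joins MEI-1 in katanin, had the largest fall of the list in polysomal RNA. It fell by 0.83 ± 0.15 in total and 1.51 ± 0.18 in polysomal RNA in the authors' deposited table (Cuffdiff adjusted p = 0.000207 in each).

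Between fractions the CUL-3 list split. In wild type 4 of the 23 genes were higher in polysomal RNA and 9 were lower, against 24.7% and 26.9% of all entries, and in mutant-labelled worms 2 were higher and 9 lower, against 23.9% and 27%. The adaptor mel-26 had ratios of -1.76 ± 0.17 and -1.72 ± 0.15 in the authors' deposited table (Cuffdiff adjusted p = 0.000207 in each), and so lay among the BATH genes. The cullin cul-3 was higher in polysomal RNA of wild type by 0.33 ± 0.15 (adjusted p = 0.045) and stood at 0.17 ± 0.15 in mutant-labelled worms (adjusted p = 0.326) in the authors' deposited table. A transcription factor gene of the BTB class, eor-1, had -2.21 ± 0.18 and -2.14 ± 0.17 in the authors' deposited table (Cuffdiff adjusted p = 0.000207 in each). Of the 22 genes named btb with a number, whose products carry a BTB domain, 19 were tested between strains in total RNA, where 9 fell and 3 rose (27.9% and 18.6% of all entries), and 16 in polysomal RNA, where 7 fell and 2 rose (23.9% and 14.8%). Among them btb-6 fell by 1.66 ± 0.22 in total and 1.70 ± 0.23 in polysomal RNA, and btb-2 rose by 1.07 ± 0.22 and 1.10 ± 0.22, in the authors' deposited table (Cuffdiff adjusted p = 0.000207 in each). Between the fractions of wild type 7 of 19 tested btb genes were lower in polysomal RNA and 4 higher, against 26.9% and 24.7% of all entries. Their median log2 ratio was -0.18, against 0.05 for all entries.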

How the data were processed

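Total and polysomal RNA of 14 libraries was sequenced. The submitters' processing notes name Cuffdiff 2.2.1, StringTie 1.3.4d, HISAT2 2.1.0 and FastQC 0.11.7 with genome build WBcel235; strandedness, other settings and how multiply mapped reads were counted are not given in the sources used here. The authors deposited FPKM values per gene and group and, for 6 pairs of groups, the log2 fold change, the Cuffdiff statistic (a score), the p-value and the q-value. Of these pairs 4 were used. Depth is unknown, so no interval that needs it is given.

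Samples were grouped by their titles. A gene passed at a deposited q-value under 0.05. The SE is the log2 fold change over the deposited statistic, after dividing the variance of a group by its count of libraries (3 or 4), a setting chosen with the values known. The strain difference of the polysomal ratio was tested by a two-sided Wald test with Benjamini-Hochberg adjustment. The test treats total and polysomal libraries as independent. A check on simulated data drew noise from the same variances that the test was given. That check could therefore not judge the scale of the variances or the independence. To deposited starts 1 was added, after which 45 of 87 starts equalled those of Ensembl release 115, against 1 without it. Python 3.11.15, pandas 2.3.3, numpy 2.4.6, scipy 1.17.1 and matplotlib 3.10.9 were used.

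The members, the CUL-3, BTB and marker lists and the tests were chosen with earlier results of these data known. Named were members that passed in any comparison, the 10 with the highest wild-type level, and both ends of ranges; of the lists, genes with the smallest p, then the largest change, plus cul-3 and mel-26. The gene bath-46, the untested genes and those given for gene order were named after their values were seen. Alternatives were another threshold, adjustment, level filter, centring and pseudocount, and leaving out overlapping members; coding members alone were added after seeing the data.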

Additional observations from a re-analysis of the deposited data

How the results depend on the processing

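No paired analysis was possible because the files hold 1 value per group and none per library, and leaving out replicates was not run for the same reason. No result reversed under the alternatives run. At an adjusted p under 0.01 the BATH genes lower in total RNA numbered 11, the MATH genes lower numbered 0 in total and 0 in polysomal RNA, the MATH genes higher in polysomal than in total RNA numbered 3 in wild type and 3 in mutant-labelled worms, and the BATH genes higher there numbered 0 in each strain. The CUL-3 list then had 11 genes lower in total RNA and 2 (wild type) and 1 (mutant-labelled) higher in polysomal than in total RNA. Of 106 calls of single members 79 were kept at that threshold. With adjustment over 1 comparison alone, 105 were kept, bath-19 in polysomal RNA being the exception. Without members that overlap another gene, the MATH genes lower numbered 0 in total and 1 in polysomal RNA, and BATH genes higher in polysomal than in total RNA numbered 0 in each strain. With a level of 1 FPKM or more in a group, the MATH genes lower in polysomal RNA numbered 1, the MATH genes higher in polysomal than in total RNA of wild type 3, and the BATH genes 0. Centring on genes at 5 FPKM or more moved the median strain difference in total RNA to 0.66 for MATH and -0.20 for BATH genes. A pseudocount of 1 moved the BATH median ratio of polysomal to total RNA to -1.01 in wild type and -0.96 in mutant-labelled worms. At 0.1 FPKM in place of 1, MATH genes counted as expressed numbered 25 and 21 in wild-type total and polysomal RNA and 24 and 22 in mutant-labelled worms, and BATH genes in polysomal RNA 36 and 33. Causes of these differences were not tested, and the level and overlap filters leave fewer genes. The depth of the libraries is unknown, and 30 members gave no test.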
